A study of Homo sapiens with 11 samples.

Results

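Among the 118942 peaks called for TFAP2A in cells treated with FHT-1015, 3660 (3.08%) were absent from the TFAP2A list of the DMSO cells and lay on a SMARCA4 peak of the treated cells. They were chosen by a simple rule: a TFAP2A peak of the FHT-1015 library that shared no base with any TFAP2A peak of the DMSO library, and that shared at least 1 bp with a SMARCA4 peak of the FHT-1015 library. Being new and carrying SMARCA4 under FHT-1015 are therefore how these sites were selected and not findings about them. The genome was that of 92-1, an established cell line from a uveal melanoma, a tumour of pigment cells in the eye. Its cells had been given either the solvent DMSO or FHT-1015, a compound that blocks the ATPases SMARCA4 and SMARCA2, for 4 h before fixation; the dose is not given in the sources used here. ChIP-seq, the sequencing of DNA that comes down with an antibody, was done once per condition for TFAP2A (written AP-2 in the sample titles and TFAP2A in the antibody label), SMARCA4 (also called BRG1), the histone mark H3K27ac, MITF and SOX10, and a DMSO input library was not analysed here. There were no replicates, so every difference below is a difference between lists of peaks from single libraries, and no test between conditions could be made. The intervals given are 95% Wilson intervals over peaks, which cover counting error only.

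TFAP2A is a transcription factor of the AP-2 family, which acts in the neural crest, the embryonic source of pigment cells, and in epithelia. It binds GC-rich DNA at promoters and enhancers. SMARCA4 and SMARCA2 are the alternative ATPases of the BAF complexes, which slide and evict nucleosomes and so open DNA for transcription factors. MITF, the lineage factor of melanocytes, and SOX10, a neural crest factor that maintains pigment cells, are known to bind at many of the same enhancers, and H3K27ac marks active promoters and enhancers.

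To show the kind of DNA at and beside these peaks, the promoter windows are given for the 6 strongest sites that lay on a window of the RefSeq promoter table (build GRCh38.p14, 250 bases before to 50 after an annotated start, written 5′ to 3′ in the direction of the gene). Strength here is the −log10 p that the authors' peak caller gave the TFAP2A peak. Capitals mark GCCNNNGGC, the textbook AP-2 core, a pattern that reads the same on both strands.
CAMTA1: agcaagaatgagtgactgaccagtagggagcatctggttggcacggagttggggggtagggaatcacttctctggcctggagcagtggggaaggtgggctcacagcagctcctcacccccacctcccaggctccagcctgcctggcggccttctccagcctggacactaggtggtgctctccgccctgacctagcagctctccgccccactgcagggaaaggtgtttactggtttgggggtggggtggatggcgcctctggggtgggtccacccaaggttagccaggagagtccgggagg
B4GALT7: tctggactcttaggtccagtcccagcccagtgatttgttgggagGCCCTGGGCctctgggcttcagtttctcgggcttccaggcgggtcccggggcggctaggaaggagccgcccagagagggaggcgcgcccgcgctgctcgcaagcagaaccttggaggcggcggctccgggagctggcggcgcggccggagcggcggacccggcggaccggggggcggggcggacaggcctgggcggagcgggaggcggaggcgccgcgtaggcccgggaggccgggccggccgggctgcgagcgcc
SLC8A1: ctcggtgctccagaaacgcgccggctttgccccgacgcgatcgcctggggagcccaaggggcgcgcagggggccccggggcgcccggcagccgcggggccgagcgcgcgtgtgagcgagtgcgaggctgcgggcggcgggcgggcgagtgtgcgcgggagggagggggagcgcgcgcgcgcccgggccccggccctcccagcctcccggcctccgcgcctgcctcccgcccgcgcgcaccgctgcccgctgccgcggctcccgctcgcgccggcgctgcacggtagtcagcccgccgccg
IRF2BP2: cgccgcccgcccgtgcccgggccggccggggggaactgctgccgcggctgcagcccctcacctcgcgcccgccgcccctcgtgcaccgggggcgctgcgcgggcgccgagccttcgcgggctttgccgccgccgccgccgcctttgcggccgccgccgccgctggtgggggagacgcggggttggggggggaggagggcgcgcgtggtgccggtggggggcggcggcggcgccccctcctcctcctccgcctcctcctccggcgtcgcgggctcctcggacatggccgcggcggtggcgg
LDOC1: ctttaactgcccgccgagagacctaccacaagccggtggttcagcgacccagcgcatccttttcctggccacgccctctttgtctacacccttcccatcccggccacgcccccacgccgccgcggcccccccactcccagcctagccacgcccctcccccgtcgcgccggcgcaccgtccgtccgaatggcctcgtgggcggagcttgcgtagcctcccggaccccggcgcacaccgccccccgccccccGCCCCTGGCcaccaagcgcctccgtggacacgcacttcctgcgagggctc
EFL1: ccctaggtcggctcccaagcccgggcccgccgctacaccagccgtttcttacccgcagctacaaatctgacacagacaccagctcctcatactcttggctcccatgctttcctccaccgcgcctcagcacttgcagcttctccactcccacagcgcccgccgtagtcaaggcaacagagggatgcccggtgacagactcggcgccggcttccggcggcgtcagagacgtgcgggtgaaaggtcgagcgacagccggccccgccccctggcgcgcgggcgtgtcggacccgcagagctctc
The CAMTA1 window (chr1:7669480-7669779, plus strand) lay whole under its TFAP2A peak, had a GC content of 63.7% and held no match to the core. CAMTA1 encodes a calmodulin-binding transcription activator, and its peak at chr1:7669055-7669889 had a −log10 p of 22.7 and 26 reads at the summit. The B4GALT7 window (chr5:177599882-177600181, plus strand) held 1 match in 76.7% GC, with 148 bases under the peak (−log10 p 18). B4GALT7 is a galactosyltransferase that builds the linker of proteoglycans. Windows of SLC8A1, a sodium and calcium exchanger (chr2:40452041-40452340, minus strand), and IRF2BP2, a transcriptional corepressor (chr1:234609476-234609775, minus strand), were the richest in GC, 83.3% and 84%, and held no match. Of their 300 bases, 117 and 56 lay under the peak, so these GC values are mostly those of DNA beside it. The LDOC1 window (chrX:141177080-141177379, minus strand) held 1 match, and 281 of its bases lay under the peak. The window of EFL1, a GTPase of ribosome assembly (chr15:82262685-82262984, minus strand), held none and had 160 bases under its peak. That peak lay 51601 bp from the nearest DMSO TFAP2A peak. So 2 of these 6 promoters carried the core within the window, and the strongest of them did not.

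Across the table, 329 promoter windows of protein-coding genes shared a base with one of the new sites, and 80 of them (24.3%, interval 20.0 to 29.2%) held GCCNNNGGC. The share was 27.3% over all 22198 windows, 37.3% over the 10059 windows under retained TFAP2A peaks with SMARCA4, 25.7% over the 428 windows under new peaks without SMARCA4, and 16.7% over the 9675 windows with no TFAP2A peak of the treated cells. GC content differed between these groups too, with a median of 64% under the new sites, 67.7% under the retained sites and 62.3% over all windows. Within quintiles of the windows by GC content, the core stood in 38.9% of the windows under new sites in the most GC-rich quintile, against 54.1% of all windows there. In the next lower quintile the shares were 30.5% and 38.1%, in the middle one 22% and 24.6%, and in the one below 10.4% and 15%. In the quintile with the least GC, which held 31 windows under new sites, the order turned, with 6.45% against 4.86%. These counts describe letters in the windows, and the sequence of sites outside the table was not analysed here.

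The new sites were weak as TFAP2A peaks. Their median −log10 p was 5.03, with quartiles of 3.85 and 6.68, and the median fold over the caller's background was 3.35. Retained TFAP2A peaks with SMARCA4 had a median −log10 p of 17 and a fold of 6.20, while new TFAP2A peaks without SMARCA4 stood at 4.53 and 3.44. Of the 3660 sites, 245 reached a −log10 p of 10 and 87.4% had a q-value under 0.05. In deciles of the treated TFAP2A list by −log10 p, 646 of the sites fell in the weakest decile, 26 in the last but one and 1 in the strongest. The sites had a median width of 264.5 bp, against 515 bp for retained peaks with SMARCA4.

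**Figure D1:**
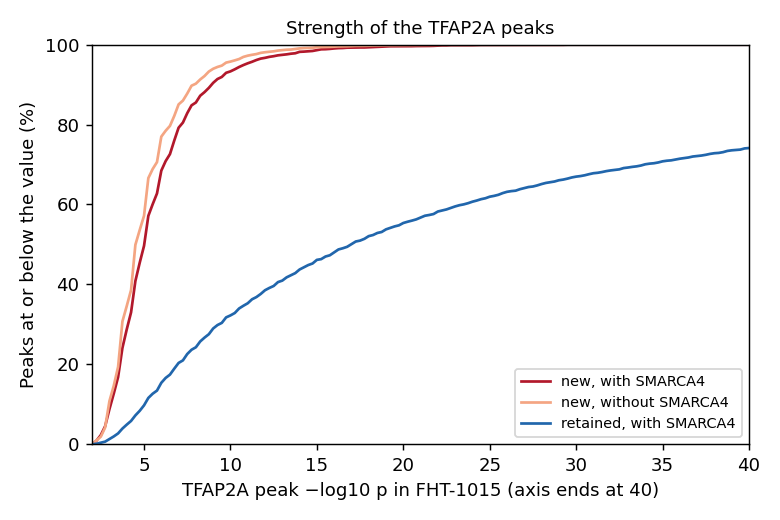
Cumulative share of TFAP2A peaks of FHT-1015-treated cells (vertical axis, %) at or below a given −log10 p of the authors' caller (horizontal axis, ending at 40), for new peaks with SMARCA4, new peaks without SMARCA4 and retained peaks with SMARCA4. The curves of both new classes run close together, with medians of 5.03 and 4.53, and far from that of the retained class, with a median of 17.

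Few reads stood behind each site. Reads at the summit, recovered from the deposited fold and −log10 p, had a median of 12 (quartiles 10 and 16) at the new sites, over a median background of 2.88 reads. Retained peaks with SMARCA4 had a median of 31 reads. The DMSO TFAP2A list reached down to 5 reads, with a median of 18 over its 142667 peaks, so a site with fewer reads than the caller needed in DMSO could be missing from that list while TFAP2A was bound there. As an estimate of relative depth, the lowest background of each list was divided by its shortest peak. For TFAP2A the backgrounds were 1.61 reads under FHT-1015 and 1.62 in DMSO and the shortest peaks 192 and 185 bp, which gives a ratio of 0.960 of treated to DMSO. This estimate rests on the inferred form of the caller, and nearly all of its distance from 1 comes from the peak length.

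New peaks were not spread evenly over the treated list. Of all 118942 TFAP2A peaks, 40938 (34.4%) were new and 36478 (30.7%) had SMARCA4 under FHT-1015. Among peaks with SMARCA4, 10% were new, and among the 82464 peaks without it 45.2% were new, so that 8.94% of the new peaks carried SMARCA4. These shares follow from the selection, and are given to place the sites within the list. New peaks without SMARCA4 (37278) and retained peaks with SMARCA4 (32818) are the comparison classes below. Shares over all treated TFAP2A peaks are given too, but 30.7% of those had SMARCA4 under FHT-1015, whereas every site did by the rule.

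The SMARCA4 peaks under the sites were somewhat stronger and wider than their list as a whole. This is a description, since the rule picked them from that list by 1 shared bp, and the strongest was taken where several overlapped. Their median width was 429 bp, against 316 bp over the list and 635 bp at retained TFAP2A peaks. The 3660 sites lay on 3581 SMARCA4 peaks of the treated cells, with a median −log10 p of 6.18, against 4.96 over all 89761 SMARCA4 peaks of that library and 9.54 at retained TFAP2A peaks. TFAP2A and SMARCA4 summits lay a median of 151 bp apart, and 59.8% lay within 200 bp. At the edge of the rule, 47 sites shared 10 bp or fewer with their SMARCA4 peak (median TFAP2A −log10 p 4.42), and 19 sites lay within 10 bp of a DMSO TFAP2A peak (median 4.02). Just outside it, 31 retained peaks with SMARCA4 shared 10 bp or fewer with a DMSO TFAP2A peak, with a median of 5.12.

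Many of the sites carried SMARCA4 or H3K27ac in the cells without inhibitor. In DMSO, 1724 of the 3660 sites (47.1%, interval 45.5 to 48.7%) shared a base with a SMARCA4 peak and 1834 (50.1%, 48.5 to 51.7%) with an H3K27ac peak. New TFAP2A peaks without SMARCA4 under FHT-1015 had DMSO SMARCA4 in 2.55% and DMSO H3K27ac in 3.79% of cases. Retained peaks with SMARCA4 had them in 83.8% and 76.4%, and all treated TFAP2A peaks in 32.1% and 28.9%. The new sites thus stood between the comparison classes, and above the level of the whole list for both readouts. By the rule every site had SMARCA4 under FHT-1015, against 30.7% of the whole list, so a place above that list may follow from the selection. Retained peaks, chosen with SMARCA4 as well, had the higher share for both readouts. With summits within 200 bp required in place of 1 shared bp, DMSO H3K27ac stood at 18.2% of the 2259 sites that met this rule, against 11.1% of all treated TFAP2A peaks by the same rule, 1.91% of new peaks without SMARCA4 and 31.0% of retained peaks with SMARCA4. The DMSO SMARCA4 list comes from the same antibody as the treated list that the rule used.

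Because the classes differ in TFAP2A strength, they were also compared within deciles of the treated list by TFAP2A −log10 p. With strength matched in this way, the share with DMSO SMARCA4 at the new sites minus that at retained sites with SMARCA4 was −29.1 percentage points (interval −30.9 to −27.3), and it was negative in 9 of the 9 deciles that held enough peaks. For DMSO H3K27ac the matched difference was −16.0 points (−17.8 to −14.1). Against new peaks without SMARCA4, the sites had 44.5 points more DMSO SMARCA4 (42.9 to 46.1) and 46.2 points more DMSO H3K27ac (44.6 to 47.9). The SMARCA4 difference between the new classes is no finding, because the rule split them by a SMARCA4 peak of the same antibody. The rule also bears on the differences from retained sites, here and below, since those have a DMSO TFAP2A peak and the new sites have none. Peak width was not matched, with medians of 264.5 bp at the new sites and 515 bp at the retained ones. The part of either in the differences was not tested.

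**Figure D2:**
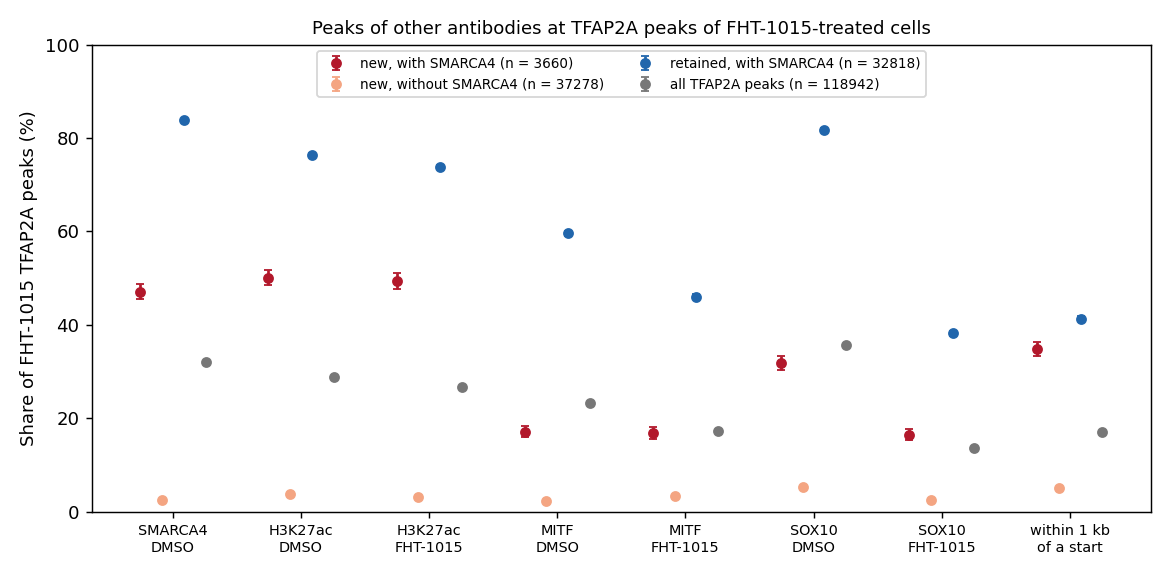
Share of TFAP2A peaks of FHT-1015-treated cells (vertical axis, %) that share a base with a peak of the antibody and condition named below, or that lie within 1 kb of a transcription start. Where the start of a gene was not known, either boundary counted as one. Points are the shares and bars 95% Wilson intervals over peaks. New sites with SMARCA4 lie between new peaks without SMARCA4 and retained peaks with SMARCA4 in all 8 columns, for example 47.1% against 2.55% and 83.8% for DMSO SMARCA4.

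DMSO SMARCA4 and H3K27ac often stood together. Both were present at 1235 of the sites (33.7%), H3K27ac alone at 599 (16.4%), SMARCA4 alone at 489 (13.4%) and neither at 1337 (36.5%). Where SMARCA4 had been called in DMSO, H3K27ac was there too at 71.6% of sites, against 30.9% where it had not. SOX10 in DMSO showed the same order, with 47.7% against 17.5%, as did MITF, with 25.3% against 9.87%. This order was not particular to the new sites. At retained sites with SMARCA4 the shares were 82.1% against 47.3% for H3K27ac, 87.7% against 51.4% for SOX10 and 65.4% against 29.6% for MITF. New peaks without SMARCA4 under FHT-1015 had H3K27ac in 29.4% against 3.12%. The SMARCA4 peaks of treated cells differed among the new sites as well. Their median −log10 p was 10.2 at the 1724 sites with DMSO SMARCA4 and 4.75 at the 1936 sites without. The TFAP2A peaks there had medians of 5.12 and 4.97. Of the 1936 sites without a DMSO SMARCA4 peak, 34.3% lay within 500 bp of one, and the median distance was 1034 bp. At the 5324 retained sites with SMARCA4 under FHT-1015 but none in DMSO, the values were 34.5% and 1425 bp.

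H3K27ac was largely called at the same sites in both conditions. It was present in both at 1632 sites, in DMSO alone at 202, under FHT-1015 alone at 176 and in neither at 1650. The share under FHT-1015 was 49.4% (47.8 to 51.0%), against 26.7% over all treated TFAP2A peaks, 3.25% at new peaks without SMARCA4 and 73.8% at retained peaks with SMARCA4. With summits within 200 bp it was 17.6%, against 11.9% over all treated TFAP2A peaks by that rule. Matched for strength, the difference from the retained class was −9.51 points (−11.4 to −7.62). Of the sites with DMSO H3K27ac, 89.0% (87.5 to 90.3%) had it under FHT-1015, below the 91.7% of retained sites and above the 59.7% of new peaks without SMARCA4. The whole H3K27ac lists held 68093 peaks in DMSO and 48103 under FHT-1015.

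MITF and SOX10 were less frequent at the sites than SMARCA4 and H3K27ac. MITF peaks of the DMSO cells stood at 627 sites (17.1%, 15.9 to 18.4%), below the 23.3% of all treated TFAP2A peaks and the 59.6% of retained peaks with SMARCA4. Under FHT-1015, 617 sites (16.9%) had MITF, against 17.3% of all treated TFAP2A peaks. The sites with MITF were only in part the same: 410 had it in both conditions, 217 in DMSO alone and 207 under FHT-1015 alone. Matched for strength, the difference from retained sites was −29.4 points in DMSO and −10.7 points under FHT-1015.

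SOX10 was called at 1162 sites (31.7%, 30.3 to 33.3%) in DMSO, against 35.7% of all treated TFAP2A peaks, and at 603 (16.5%, 15.3 to 17.7%) under FHT-1015, against 13.7%. Of the sites with SOX10 in DMSO, 39.0% (36.2 to 41.8%) kept a SOX10 peak, against 45.4% at retained sites and 20.9% at new peaks without SMARCA4. SOX10 was present in both conditions at 453 sites, in DMSO alone at 709, under FHT-1015 alone at 150 and in neither at 2348. The SOX10 list held 103379 peaks in DMSO and 33268 under FHT-1015, and the share was lower under FHT-1015 over all treated TFAP2A peaks too. Matched for strength, the difference from retained sites was −36.2 points in DMSO, but under FHT-1015 it was 0.166 points, with an interval from −1.25 to 1.58 that includes 0.

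**Figure D3:**
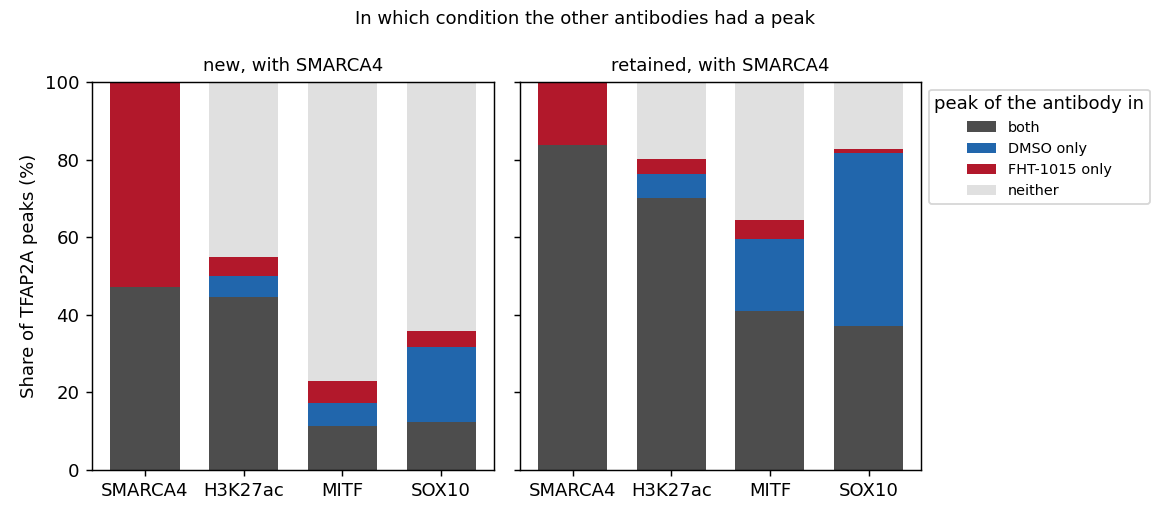
Share of sites (vertical axis, %) at which each antibody had a peak in both conditions, in DMSO alone, under FHT-1015 alone or in neither, for new TFAP2A peaks with SMARCA4 (left) and retained TFAP2A peaks with SMARCA4 (right). SMARCA4 under FHT-1015 is present at every site by selection. At the new sites H3K27ac was mostly in both conditions (44.6%) or in neither (45.1%), while SOX10 in DMSO alone (19.4%) was more frequent than SOX10 in both (12.4%).

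A DMSO peak of none of the 5 antibodies was found at 1186 of the sites (32.4%, 30.9 to 33.9%), against 89.5% of new peaks without SMARCA4 and 5.34% of retained peaks with SMARCA4, which by definition have a DMSO TFAP2A peak that is not counted here. At 57 of these 1186 sites (1.56% of all 3660) H3K27ac was called under FHT-1015. In the treated cells, 1637 sites (44.7%) carried TFAP2A and SMARCA4 without H3K27ac, MITF or SOX10, against 20.4% of retained sites with SMARCA4. At the other end, 130 sites (3.55%) had all 4 other antibodies in both conditions, against 23% of retained sites with SMARCA4. MITF or SOX10 had been called in DMSO at 1344 sites (36.7%).

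Most of the new peaks lay in the neighbourhood of a DMSO TFAP2A peak. The nearest DMSO TFAP2A peak was a median of 525.5 bp away, and 1779 sites (48.6%) had one within 500 bp. New peaks without SMARCA4 lay a median of 4222 bp away, with 11.4% within 500 bp. For 963 sites (26.3%), the SMARCA4 peak on which they lay also touched a DMSO TFAP2A peak. At the far end, 329 sites (8.99%) had no DMSO TFAP2A peak within 10 kb on a chromosome that held one, against 28.9% of new peaks without SMARCA4.

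**Figure D4:**
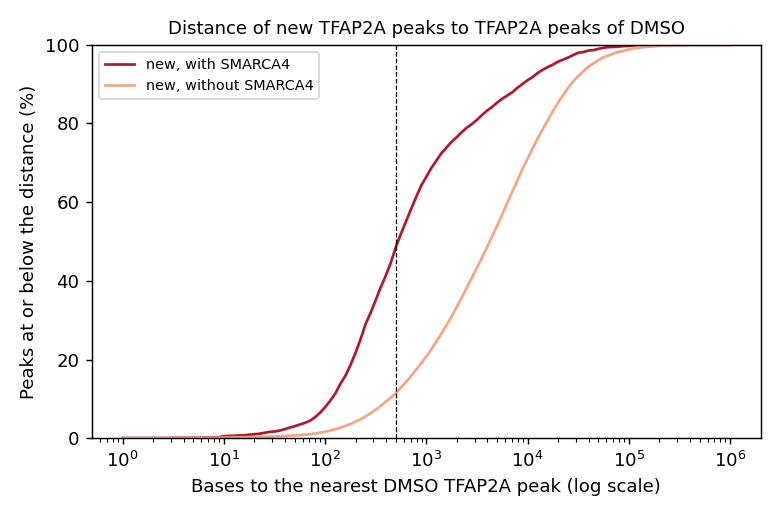
Cumulative share of new TFAP2A peaks (vertical axis, %) by distance in bases to the nearest TFAP2A peak of DMSO cells (horizontal axis, log scale), with and without SMARCA4 under FHT-1015; the dashed line marks 500 bp. By 500 bp the curve of sites with SMARCA4 has reached 48.6%, and that of sites without it 11.4%.

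Distance from DMSO TFAP2A peaks went with the DMSO peaks of SMARCA4 and H3K27ac. Among sites under 500 bp from a DMSO TFAP2A peak, 58.5% (56.2 to 60.7%) had DMSO SMARCA4 and 63.4% (61.1 to 65.6%) DMSO H3K27ac. Among the 1881 sites farther away the shares were 36.4% (34.2 to 38.6%) and 37.6% (35.4 to 39.8%). MITF showed little of this at the 500 bp split, with 16.9% and 17.4%, and SOX10 had 34.2% and 29.5%. The strength of the TFAP2A peak did not go with distance, at medians of 5.03 and 5.07. At the 331 sites with no DMSO TFAP2A peak within 10 kb or on their contig, SMARCA4 was still present in DMSO at 33.5% (28.7 to 38.8%) and H3K27ac at 30.8% (26.1 to 36.0%). SOX10 in DMSO stood at 40.5% (35.3 to 45.9%) of these 331 sites and MITF at 26.0% (21.6 to 31.0%), both above their shares under 500 bp.

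Many of the sites lay at gene starts. A site was counted at a start where it shared a base with 1 kb either side of an annotated start of a protein-coding gene, or of either boundary for the 4191 genes whose start was not in the table used here. A boundary can be the 3′ end of a gene, so some sites counted at a start may lie at a gene end. By this count 1273 sites (34.8%, 33.3 to 36.3%) were at a start, 1461 (39.9%) elsewhere in a gene and 926 (25.3%) between genes. New peaks without SMARCA4 were at a start in 5.10%, retained peaks with SMARCA4 in 41.3% and all treated TFAP2A peaks in 17.1% of cases. Against retained sites the raw difference was −6.50 points, but matched for strength it was 7.02 points (5.24 to 8.79), so the direction turned with the matching. At 609 of the 1273 sites (47.8%) the start itself lay under a DMSO TFAP2A peak, and at 1047 (82.2%) one lay within 1 kb of it.

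The positions of the summits within the start regions are a description, since the rule removed every peak that touched a DMSO TFAP2A peak, and such peaks often cover the start. Counting only starts with a known strand, 945 summits lay within 1 kb, 341 upstream and 604 downstream, and 26.6% of them lay within 250 bp of the start. For new peaks without SMARCA4 it was 32.1% of 1039 summits, with 549 upstream and 490 downstream. Of the 10485 retained summits with SMARCA4 in such regions 53.3% lay within 250 bp, with 4904 upstream and 5581 downstream. Sites at starts had DMSO SMARCA4 in 60.8% and DMSO H3K27ac in 61.7% of cases, against 39.8% and 43.9% at sites away from starts. SOX10 in DMSO was also more frequent at starts, 40.4% against 27.1%, and MITF was not, 16.4% against 17.5%.

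**Figure D5:**
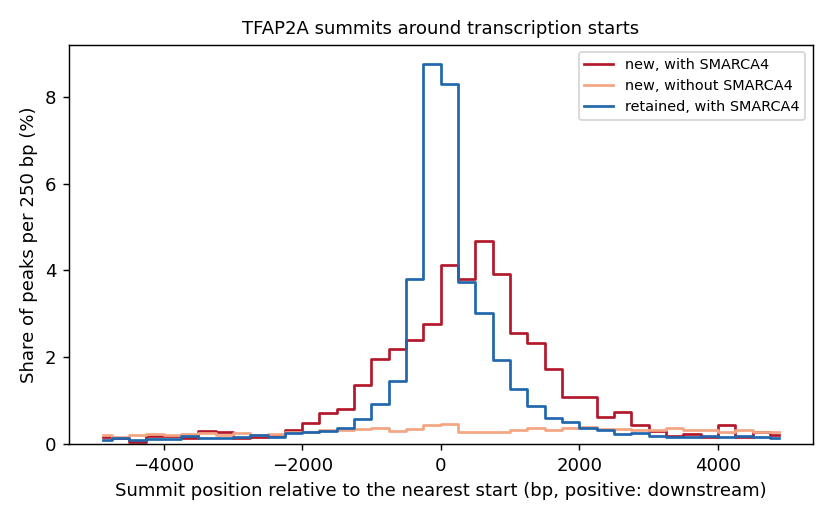
Share of TFAP2A peaks of each class per 250 bp bin (vertical axis, %) by the position of the summit relative to the nearest start with known strand (horizontal axis, bp, positive values downstream). Retained peaks with SMARCA4 crowd at the start, whereas new peaks with SMARCA4 are broad and lean downstream, 604 of 945 within 1 kb.

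The strongest new site of all lay inside TBC1D23, a gene for a Golgi protein that captures endosomal vesicles, at chr3:100320864-100321697 and 60517 bp downstream of the nearest start. Its TFAP2A −log10 p was 54.6, with a fold of 17.3 and 53 reads at the summit, and the nearest DMSO TFAP2A peak lay 8975 bp away. Every other antibody had a peak there in both libraries. The −log10 p in DMSO and under FHT-1015 was 5.71 and 22.5 for SMARCA4, 17.6 and 108 for H3K27ac, 73.2 and 94.6 for MITF, and 6.55 and 24.8 for SOX10. Such values rank a peak within its own list, and lists differ in depth and background, so the paired values are not a measured change.

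RASAL2, which encodes a Ras GTPase-activating protein, held the site ranked 5 (chr1:178168524-178168881, TFAP2A −log10 p 24.1, 48 reads), again with all antibodies in both conditions. Its MITF peaks had −log10 p of 68.3 in DMSO and 96.6 under FHT-1015, and its H3K27ac peaks 16.3 and 64.6. SEMA3D, a secreted guidance cue of neural crest cells, held another at chr7:84997573-84997995 (TFAP2A 19.8), with SMARCA4 at 32.7 and 46.8 and H3K27ac at 17.6 and 130. A site in LRRC1, a scaffold protein of cell junctions, completed this group at chr6:53912738-53912997 with a TFAP2A −log10 p of 19.2 and SOX10 peaks of 38.2 and 23.9. The last, nearest to ALG10B on chromosome 12 with its summit at −814749 bp from the start, had a TFAP2A −log10 p of 21.2 and H3K27ac peaks of 25.6 and 22.2. All 5 of these lay over 500 bp from a DMSO TFAP2A peak and away from starts.

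Other strong sites had no DMSO peak of any antibody. At the start of LRRC73, a gene for a leucine-rich repeat protein, the site at chr6:43509593-43509854 had a TFAP2A −log10 p of 29.4 with 43 reads, and the SMARCA4 peak under FHT-1015 (11.6) was its sole companion in either condition. A DMSO TFAP2A peak nevertheless stood 111 bp away. In NAALADL2, a peptidase-like gene, the site at chr3:175672015-175672509 (TFAP2A 24.4) had peaks of SMARCA4 (2.86), H3K27ac (3.68), MITF (5.90) and SOX10 (6.17) in the treated lists alone, and the nearest DMSO TFAP2A peak was 23823 bp away. Near REEP6 on chromosome 19, the site (TFAP2A 22.5) had SMARCA4 at 7.25 and MITF at 3.49 under FHT-1015. Near CBLN1, a synaptic organiser, it (TFAP2A 21.5) had SMARCA4 alone, at 3.52.

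The fifth of these sites was beside TFAP2A itself. At chr6:10394506-10394888, outside the gene and 17725 bp downstream of its nearest start, the TFAP2A peak had a −log10 p of 19.2, a fold of 6.27 and 35 reads. SMARCA4 (5.47) and H3K27ac (4.26) were called there under FHT-1015 and neither in DMSO, and a DMSO TFAP2A peak lay 305 bp away. A further, weak site inside the TFAP2A gene (chr6:10409550-10409860, −log10 p 2.13) had SMARCA4, H3K27ac and SOX10 in both conditions.

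CCND1, which encodes cyclin D1, the partner of CDK4 and CDK6 in entry to the cell cycle, had a site at chr11:69641712-69642580, within 1 kb of a boundary of the gene, whose strand was not in the table. Its TFAP2A −log10 p was 20.7 with 30 reads, and a DMSO TFAP2A peak lay 141 bp away. H3K27ac there stood at 137 in DMSO and 214 under FHT-1015, and SMARCA4 stood at 7.03 and 6.27. IL12RB2, a subunit of the interleukin-12 receptor, had a site at its start (chr1:67308126-67308553, TFAP2A 21.9) with SMARCA4 at 17 under FHT-1015 and none in DMSO. Of the 15 strongest sites, 8 had DMSO SMARCA4, 7 DMSO H3K27ac, 4 were at a start and 5 lay under 500 bp from a DMSO TFAP2A peak. Over all new sites the shares were 47.1%, 50.1%, 34.8% and 48.6% in that order. The remainder of the 15 were in FKBP2 (25.5), GRIN1 (22.2) and TMEM245 (22.2), at the CAMTA1 start shown above, and nearest to DDX53 (21.9).

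At the 10 sites under the strongest SMARCA4 peaks, the TFAP2A −log10 p ran from 2.75 to 11.9, on both sides of the 5.03 median of all new sites. An H3K27ac peak in DMSO was called at 9 of the 10, against 50.1% of all new sites. In PLXNA2, a semaphorin receptor, the SMARCA4 peak had a −log10 p of 186 under FHT-1015 and 85.7 in DMSO, with H3K27ac at 327 and 247, while the TFAP2A peak at chr1:208084739-208085340 reached 4.77 with 14 reads. Beside TMX4, a thioredoxin-related protein, SMARCA4 stood at 173 and 139 and TFAP2A at 5.22. At the start of MICA, a ligand of the NKG2D receptor, SMARCA4 was 142 under FHT-1015 and 6.41 in DMSO, and H3K27ac 59.5 and 42.9. At the start of IL4R, the interleukin-4 receptor, 2 sites (chr16:27313528-27313761 and chr16:27314539-27314808) lay on a single SMARCA4 peak of 111, against 15.4 and 15 in DMSO, and their TFAP2A peaks were 11.9 and 8.83. H3K27ac was weak or missing at both, at 2.66 in DMSO alone at the first and in neither condition at the other.

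Of these 10 sites, 9 had SMARCA4 in DMSO (47.1% of all new sites) and 9 a DMSO TFAP2A peak under 500 bp away (48.6%). The exception to both counts is a site not described here. Others of them were near LPGAT1 (SMARCA4 134 under FHT-1015) and STMND1 (106), and in GJC1 (122) and DLGAP1 (93.4).

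Sites were spread over many genes. Of 20033 protein-coding genes, 3505 (17.5%) had a site in the gene or within 10 kb and 1313 (6.55%) had one at a start. Inside the gene, 1855 held 1 site and 243 held 2. PCDH7, a protocadherin, held most, with 9 in 426 kb, and TFAP2A −log10 p from 2.13 to 6.85. MEF2C, a transcription factor of muscle, neural crest and other lineages, held 8 in 187 kb, with −log10 p from 2.81 to 14.4. All 8 MEF2C sites had SMARCA4, H3K27ac and SOX10 in DMSO, 8 had H3K27ac and 3 had SOX10 under FHT-1015.

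ARID1B, a subunit of the BAF complex, GNAI1, an inhibitory G protein subunit, and GSE1, a component of corepressor complexes, held 7 each. All 7 GNAI1 sites had H3K27ac in both conditions and SOX10 in DMSO, and 6 had SOX10 under FHT-1015. Of the 7 ARID1B sites 5 had DMSO SMARCA4 and 6 DMSO H3K27ac, whereas of the 7 GSE1 sites 3 had SMARCA4 and 3 H3K27ac in DMSO. INPP4B, a phosphoinositide phosphatase, held 6. CCSER1, HMCN1, NHERF2, RARA and RERE tied at 5, which made 11 genes in place of 10. NHERF2, a scaffold of membrane transporters, was the shortest of these genes at 12.1 kb, and of its 5 sites none had SMARCA4, MITF or SOX10 in DMSO and 1 had H3K27ac. RARA, the retinoic acid receptor alpha, had weak sites, from 2.33 to 3.94. The genes also differed in TFAP2A peaks of any kind: GSE1, at 507 kb, held 125 TFAP2A summits of the treated cells, and NHERF2 held 12.

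Gene lists for this tissue were read against the share of all protein-coding genes, 17.5% for a site within 10 kb and 6.55% for a site at a start. As above, either boundary counts as a start for genes whose start was not in the table, and it may be a 3′ end. Because many listed genes carry TFAP2A and SMARCA4 anyway, the share was also taken among genes with any TFAP2A peak with SMARCA4 in the treated cells, which was 24.3% over all 14406 such genes. Of 20 pigment cell genes 12 had a site and 4 had one at a start, and 63.2% of the 19 with TFAP2A and SMARCA4 had a site. The median length of these genes was 81.4 kb, against 24.1 kb over all genes.

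MITF, the melanocyte regulator, had 4 sites inside it, the strongest at chr3:69766643-69766853 with a TFAP2A −log10 p of 5.13 and SMARCA4, H3K27ac and MITF itself in DMSO. The SOX10 gene had 1 site (chr22:37982416-37982625, TFAP2A 4.06), on a SMARCA4 peak of 43.0, with SMARCA4, H3K27ac, MITF and SOX10 called there in DMSO but no SOX10 under FHT-1015. PAX3, which acts upstream of MITF, had 3 inside it, up to a −log10 p of 12. TYRP1, a melanosomal enzyme, had 3 within 10 kb.

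At starts of pigment genes, all of the TFAP2A peaks were modest, with −log10 p from 3.67 to 6.90. The site at the neighbouring boundaries of PMEL, the amyloid scaffold of melanosomes, and CDK2 (chr12:55967402-55967608, TFAP2A 6.90) had H3K27ac at 313 in DMSO and 113 under FHT-1015, and SMARCA4 (14.8) under FHT-1015 alone. MC1R, the melanocortin receptor, had H3K27ac at 167 and 5.73 and SMARCA4 (6.83) under FHT-1015 alone, with TFAP2A at 6.06. MLPH, which links melanosomes to myosin, had SMARCA4 at 10.4 in DMSO and 40.3 under FHT-1015 and H3K27ac (18.3) in DMSO alone, and GPR143, a melanosomal receptor, had TFAP2A at 5.03 with SMARCA4 at 2.28 and 10.7.

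Of the 20 neural crest and AP-2 family genes 7 had a site and 3 had one at a start, FOXD3, MSX1 and SOX9. FOXD3 and MSX1, both early neural crest factors, had sites at their starts with SMARCA4 under FHT-1015, at TFAP2A −log10 p of 5.96 and 5.12. No DMSO peak of any antibody touched these 2 sites, but a DMSO TFAP2A peak lay 443 and 303 bp away. SOX9, a factor of crest and cartilage, had SMARCA4 at 5.56 and 9.08 and H3K27ac at 4.20 and 11.7 in DMSO and under FHT-1015. Among genes with TFAP2A and SMARCA4, 38.9% of this list had a site.

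Of 28 BAF subunit genes 11 had a site, and 6 had one at a start: ARID1A, ARID1B, ARID2, DPF1, SMARCC2 and SS18L1. All of these but DPF1 had SMARCA4 and H3K27ac in both conditions at the site. ARID2, a subunit of the PBAF form, was the strongest, with TFAP2A at 8.89 and SMARCA4 at 8.47 in DMSO and 26.9 under FHT-1015. ARID1A, the most frequently mutated subunit in cancer, had a site of 2.79 that lay 32 bp from a DMSO TFAP2A peak. Of the 27 listed genes with TFAP2A and SMARCA4, 40.7% had a site. SMARCA4 itself had no site within 10 kb.

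Of 14 AP-1 genes 7 had a site, with FOSL1 and MAFK at a boundary, and FOSL1, a partner of JUN, had SMARCA4 at 22.2 under FHT-1015 and no peak of H3K27ac, MITF or SOX10. Of 15 YAP and TEAD genes 8 had a site, among them YAP1 and WWTR1, the coactivators, and VGLL4, a TEAD repressor, at its start (TFAP2A 4.75, SMARCA4 9.35 and 24.8). Of 18 p53 and cell cycle arrest genes 7 had a site. CDKN1A, the p21 inhibitor, had one at its start (chr6:36677595-36677840, TFAP2A 4.70) with SMARCA4 at 10.0 and 5.48 and H3K27ac at 31.0 and 40.2, and SESN1, a stress-induced regulator of growth signalling, another (6.46). Among genes with TFAP2A and SMARCA4, a site was found for 63.6% of AP-1, 53.3% of YAP and TEAD and 38.9% of arrest genes. These genes numbered 11, 15 and 18, and the share over all genes was 24.3%. The median length was 10.7 kb for AP-1 genes, 59.9 kb for YAP and TEAD genes and 5.86 kb for the arrest genes.

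Of 18 epithelial genes 4 had a site, and 26.7% of those with TFAP2A and SMARCA4 did, close to the 24.3% of all genes. EGFR, the receptor of epidermal growth factor, had one at its start (chr7:55018647-55018945, TFAP2A 11.7, 16 reads) with SMARCA4 at 7.12 under FHT-1015 and no other peak in either condition. The nearest DMSO TFAP2A peak was 106133 bp away, the farthest among sites at starts of listed genes. CDH1, which encodes E-cadherin, had a site within 1 kb of a gene boundary (TFAP2A 5.12) with SMARCA4 at 4.02 under FHT-1015 alone. Of 75 genes of cytosolic ribosomal proteins, an abundantly transcribed family with short genes (median 5.04 kb), 23 had a site and 9 had one at a start. RPL17, at a start shared with the readthrough gene RPL17-C18orf32, had the strongest of these (TFAP2A 7), with H3K27ac at 127 and 186. The others, at RPL9, RPL12, RPL13A, RPL15, RPL30, RPS2, RPS6 and RPS13, had TFAP2A −log10 p from 2.48 (RPS13) to 5.39 (RPS6), and H3K27ac was called in both conditions at all 9. Of the 64 ribosomal protein genes with TFAP2A and SMARCA4, 35.9% had a site. The share over all genes with both was 24.3%, and each of the lists stood above it. The lists differ in gene length, whose part in these shares was not tested.

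Over the 29 sites at starts of listed genes, 22 had H3K27ac and 19 SMARCA4 in DMSO, 14 had SOX10 and 2 had MITF. Over all 1273 new sites at a start, the DMSO shares were 61.7%, 60.8%, 40.4% and 16.4% in that order. Sites at a gene boundary, which may be a 3′ end, are among the 29. A DMSO TFAP2A peak lay under 500 bp away at 22 of the 29, and at 844 of all 1273 new sites at a start. On the chromosomes, the sites made up between 2.29% (chromosome 8) and 3.88% (chromosome X) of the treated TFAP2A peaks, and 6 sites lay off the main chromosomes.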

How the data were processed

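Peaks came from 10 ChIP-seq libraries of 92-1 cells, 1 per antibody and condition, so no test and no p-value between conditions was computed. Reads were processed with BWA, SAMtools, Picard and MACS2 on hg38, per the submitters' processing notes, which give no settings; the role of each tool is not given in the sources used here. Per library, the authors deposited a narrow list, and for SMARCA4 and H3K27ac also a broad list. The fold of each peak is the authors' ratio over the caller's background. The −log10 p and −log10 q values were deposited by the authors and served to rank or select peaks of the same list. The score deposited by the authors was not used.

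Peaks sharing at least 1 bp were counted as overlapping, with coordinates counted from 1. Summit reads were recovered from fold = (x + 1)/(λ + 1) and a Poisson upper tail, a form inferred from the values (tolerance 0.002, −log10 p up to 290), and 100% of the new sites gave whole reads. Matched differences were averaged over deciles of the treated TFAP2A list with at least 20 peaks of both classes, weighted by n × m/(n + m). Starts came from RefSeq (GRCh38.p14) for 15842 of 20033 protein-coding genes, and both gene boundaries were used for the other 4191. Named are the genes at or nearest to the 15 strongest TFAP2A sites, the 10 strongest SMARCA4 peaks, the 5 strongest sites with no DMSO peak and the 5 with all antibodies, the 10 genes with most sites (11 with ties), listed genes with a site at a start and the 6 promoters. Sites inside MITF, SOX10, PAX3, TYRP1 and TFAP2A, and the names YAP1, WWTR1 and SMARCA4, fell outside this rule and were chosen after their values were seen. A site that the rule names is not reported here. The sites and lists were chosen with earlier results of these data known. Alternatives were other overlap rules, thresholds, distances and lists. Scripts (Python 3.11.15, pandas 2.3.3, SciPy 1.17.1) were tested on simulated data.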

Additional observations from a re-analysis of the deposited data

How the results depend on the processing

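No paired analysis was possible because each antibody had 1 library per condition. The number of sites and the shares moved with the definition, and neither matched difference changed sign. The share at starts minus that of retained sites did turn, from 7.02 points matched to −6.50 without matching. H3K27ac was 50.1% in DMSO and 49.4% under FHT-1015, within each other's intervals, and their order was the opposite among sites with −log10 p of at least 10 and among those at least 500 bp from a DMSO TFAP2A peak. Of the values under the alternatives 43 moved beyond their main counting interval, or for counts by over 1.5 times, and 19 did not. With summits within 200 bp required in place of 1 shared bp, 2259 sites met the rule, with DMSO SMARCA4 at 33.9%, H3K27ac at 18.2% in DMSO and 17.6% under FHT-1015, MITF at 14.1%, SOX10 at 25.9% and starts at 32.4%; the cause was not tested. With at least 50% of the TFAP2A peak covered, the shares were 44.6% for DMSO SMARCA4, 51.6% for H3K27ac under FHT-1015, 14.7% for MITF, 28.8% for SOX10 and 38.6% for starts. With a TFAP2A −log10 p of at least 10, which left 245 sites, they were 52.2% for SMARCA4, 54.7% for H3K27ac under FHT-1015, 19.2% for MITF, 38.4% for SOX10 and 41.2% for starts. Sites at least 500 bp from every DMSO TFAP2A peak (1881) had DMSO SMARCA4 at 36.4%, H3K27ac at 37.6% and 38.9%, SOX10 at 29.5% and starts at 22.8%, with matched differences of −39.9 points in DMSO SMARCA4 against retained sites and 35.1 points in DMSO H3K27ac against new peaks without SMARCA4. With the broad lists the sites had SMARCA4 at 49.3%, H3K27ac at 47.2% and 44.8%, MITF at 14.5%, SOX10 at 27.4%, starts at 30.5% and a matched H3K27ac difference of 43.3 points. Keeping SMARCA4 peaks of FHT-1015 with a q-value under 0.05 gave 52.2%, 54.6%, 54.3%, 18.6%, 34.4% and 38.1% for the same shares in that order, with matched differences of −26.6 and 50.5 points. Starts within 2.5 kb took in 49.9% of sites, and without matching the DMSO SMARCA4 difference was −36.7 points. A TFAP2A q-value under 0.05 moved none of these values. The median site had 12 reads at its summit, and the part of depth in which sites were new was not tested.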
